A study of Mus musculus with 6 samples.

Results

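Immunoglobulin variable (V) segments are the gene pieces that encode most of the antigen-binding end of an antibody. In a B cell, 1 heavy chain V segment is joined to a D and a J segment, and 1 kappa or lambda V segment to a J segment. Plasma cells, the antibody-secreting descendants of B cells, transcribe their joined segments strongly, so that the V segments seen in a tissue reflect which clones it holds. The V segments described here were the rows of the liver tumor table whose symbol begins Ighv, Igkv or Iglv and whose mean over all 6 libraries exceeded 1 on the deposited log2 scale. There were 83 of them among 205 V segments and 30236 genes listed. They comprised 38 of 105 heavy (Ighv), 42 of 97 kappa (Igkv) and 3 of 3 lambda (Iglv) segments. They were selected on this mean, so the levels below are a description. Just inside the threshold lay Igkv3-10, with a mean of 1.02, and Ighv1-12, with 1.01, and just outside it Igkv4-55, with 0.94, and Ighv1-5, with 0.91.

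The libraries came from 3 liver tumors of wild-type (WT) mice and 3 of Top1mt -/- mice (Top1mt-KO), in which both copies of the gene for the mitochondrial topoisomerase TOP1MT are knocked out. All were male C57BL/6 mice and all had received diethylnitrosamine (DEN), a liver carcinogen, at 14 days of age, and carbon tetrachloride (CCl4), which injures the liver, for 14 weeks from week 8. Tumors were taken at week 22, and those sequenced were of equal size. The study describes the tumors as independent, but the labels do not say whether the 3 of a group came from separate mice, so the p-values measure the spread between these tumors. Whole tumors were sequenced, so that fewer plasma cells and less RNA per plasma cell cannot be told apart. The liver origin of the libraries was seen in Alb, the gene for serum albumin, with log2 values between 20.3 and 21.1.

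A pair of libraries stood apart. Top1mt itself stood at 7.71, 5.99 and 8.01 on the log2 scale in WT tumors 1, 2 and 3 by label, and at 5.58, 6.41 and 6.32 in the KO tumors. Its level in the library labelled WT replicate 2 was thus lower than in 2 of the KO libraries, which is not the order that label would give. The KO libraries themselves kept a Top1mt signal, so its level cannot decide whether that label is right. Every direction below rests on the labels. The log2 fold change of Top1mt was -1.13 (standard error 0.52, limma adjusted p = 0.999), and without WT replicate 2 it was -1.76. KO replicate 1 stood apart in Gm42418, which had 22.0 there, above Alb at 21.1, and at most 15.8 elsewhere. In the same library Lars2 had 20.1, against at most 12.7 elsewhere, and Gm15564 had 16.8, against at most 8.9. The summed level and the count of segments at an unadjusted p under 0.05 are therefore also given without each of these libraries.

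All 83 V segments matched the GENCODE M21 annotation of GRCm38 by symbol and all were annotated as functional V genes, while 5 of the 205 listed were pseudogenes. The heavy segments lay on chromosome 12 between 113588267 and 115953005, the kappa segments on chromosome 6 between 67555497 and 70699067, and the lambda segments on chromosome 16 between 19085017 and 19260859. Each had 2 exons, a leader exon and the V exon, with 347 to 501 exonic bases (median 365). The heavy segments were drawn evenly from the locus, with 19 of the 52 listed segments nearer to the J segments and 19 of the 53 farther away. Of the kappa segments listed, 25 of 48 in the nearer part and 17 of 49 in the farther part were above the threshold. The 83 segments belonged to 29 families. The Ighv1 family, the largest in the mouse, gave 21 of its 50 listed segments, Igkv3 gave 6 of 9, and Igkv4 only 6 of 27.

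V segments resemble each other closely, which matters for how reads were assigned. The nearest other V segment was at least 95% identical for 48 of the 83 (median 95.5%), and 21 shared an unbroken stretch at least as long as 1 read with another segment. The study sequenced paired ends and kept uniquely mapped reads. Reads inside such stretches may be lost where their mate does not place them, so levels of these segments are uncertain. Among them are Igkv1-110, Igkv1-117, Igkv10-96, Igkv6-17, Igkv6-25, Ighv2-2, Ighv1-50 and Igkv3-10. The last 150 bases of 4 pairs are shown, because each holds a segment on which the results turn and a close relative. Capitals mark the bases that differ from the sequence printed just before. All are written 5′ to 3′ on the strand of the gene, from GENCODE M21 transcripts on GRCm38.
Iglv1: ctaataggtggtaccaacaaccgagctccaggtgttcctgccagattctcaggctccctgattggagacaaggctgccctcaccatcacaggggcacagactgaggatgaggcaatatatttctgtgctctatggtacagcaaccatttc
Iglv2: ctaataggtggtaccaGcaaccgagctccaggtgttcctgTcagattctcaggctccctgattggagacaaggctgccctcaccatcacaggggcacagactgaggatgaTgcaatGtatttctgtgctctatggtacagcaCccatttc
Ighv14-2: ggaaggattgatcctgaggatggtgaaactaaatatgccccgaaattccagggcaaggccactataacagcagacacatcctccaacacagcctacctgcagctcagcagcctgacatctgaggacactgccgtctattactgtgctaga
Ighv14-3: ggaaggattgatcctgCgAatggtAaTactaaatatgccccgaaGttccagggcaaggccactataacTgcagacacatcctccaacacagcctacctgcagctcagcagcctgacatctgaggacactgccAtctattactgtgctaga
Igkv1-110: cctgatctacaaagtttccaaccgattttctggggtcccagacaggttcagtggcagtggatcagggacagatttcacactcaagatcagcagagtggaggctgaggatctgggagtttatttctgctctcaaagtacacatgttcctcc
Igkv1-117: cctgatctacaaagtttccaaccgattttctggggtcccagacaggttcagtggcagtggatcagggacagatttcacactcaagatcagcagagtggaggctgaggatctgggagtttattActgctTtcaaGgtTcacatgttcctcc
Igkv6-17: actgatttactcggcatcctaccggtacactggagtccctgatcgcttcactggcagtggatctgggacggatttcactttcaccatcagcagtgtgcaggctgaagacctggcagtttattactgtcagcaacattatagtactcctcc
Igkv6-25: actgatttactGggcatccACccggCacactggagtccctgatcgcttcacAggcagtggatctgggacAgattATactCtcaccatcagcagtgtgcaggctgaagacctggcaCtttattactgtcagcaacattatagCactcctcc
Within these windows Iglv2 differed from Iglv1 at 5 bases (chr16:19260401-19260550 against chr16:19085017-19085166, minus strand). Ighv14-3 differed from Ighv14-2 at 7 (chr12:114059845-114059994 against chr12:113994469-113994618, minus strand). Igkv1-117 differed from Igkv1-110 at 4 (chr6:68121678-68121827 against chr6:68271118-68271267, plus strand), all within the last bases of the V exon. Igkv6-25 differed from Igkv6-17 at 11 (chr6:70215808-70215957 against chr6:70371844-70371993, plus strand).

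The libraries differed widely in how much V segment signal they held. The deposited values behave like a regularized log, in which a segment with few or no reads sits at a low value of its own rather than at 0. Values of the 83 segments ran from -0.21 to 6.12, and the median segment spanned 3.05 log2 units over the 6 libraries. The median segment value in tumors 1, 2 and 3 was 1.84, 2.5 and 3.0 for WT and 0.91, 0.46 and 1.86 for KO. KO replicates 1 and 2 were thus the lowest and KO replicate 3 lay among the WT libraries. Segments with a value above 1 numbered 61, 64 and 75 in WT and 40, 33 and 68 in KO. WT replicate 3 held the highest value for 37 of the 83 segments and KO replicate 2 the lowest for 34, while WT replicate 1 was lowest for 23.

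**Figure D1:**
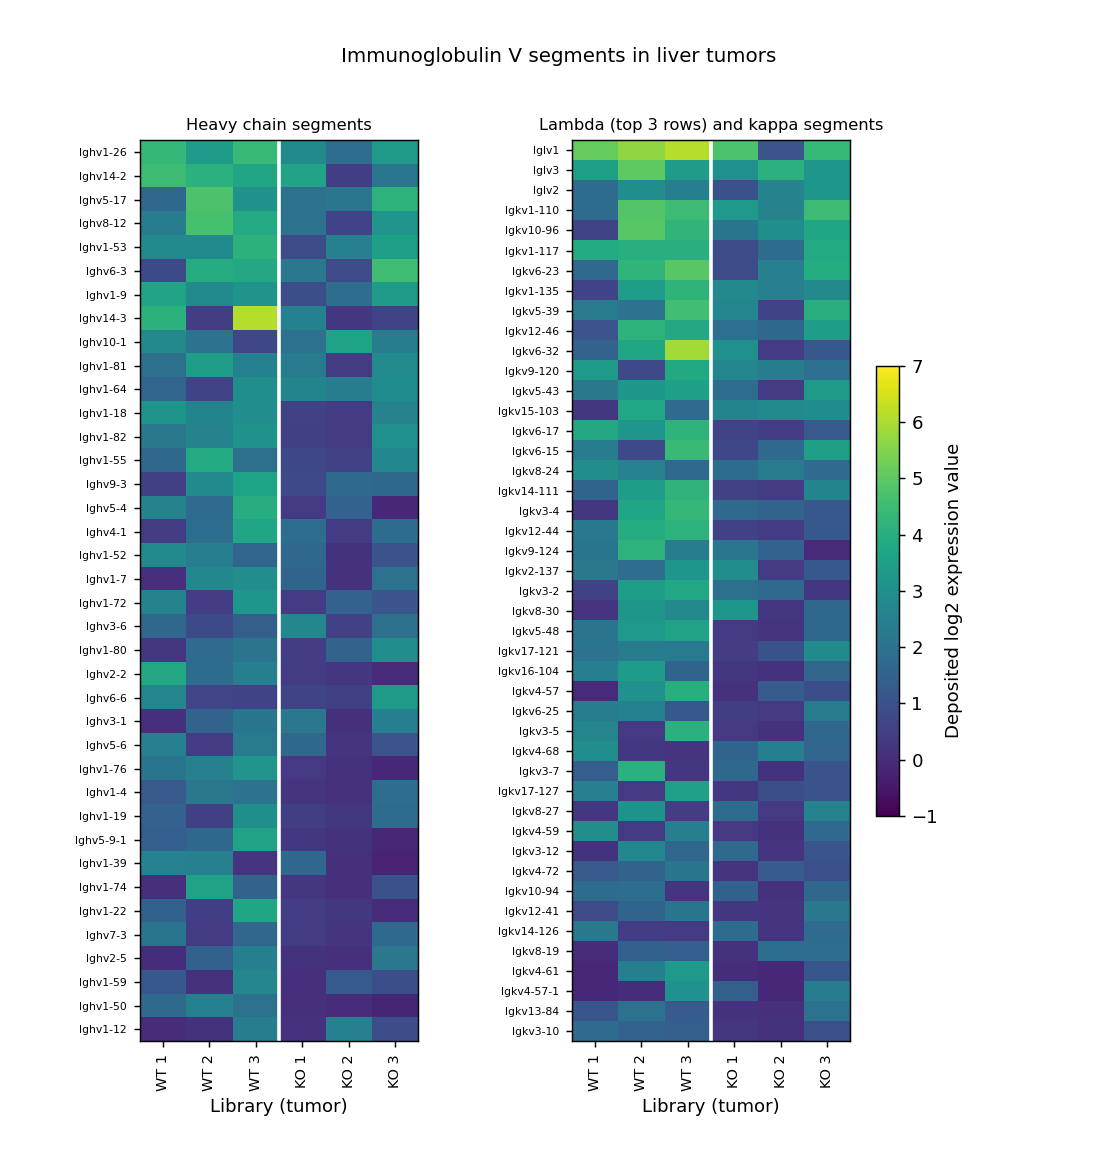
Deposited log2 values of the 38 heavy (left) and the 3 lambda and 42 kappa (right) V segments, 1 row per segment in order of mean within its chain and 1 column per tumor library, with WT left and KO right of the white line. Bright cells are few and fall on different rows in different libraries, and KO replicates 1 and 2 are dark over most rows, with 43 and 50 segments at or below 1.

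Values were returned to the linear scale and summed over the 83 segments in each library. The log2 of this sum came to 8.75, 9.46 and 9.86 in WT (mean 9.36 ± 0.56, SD, n = 3) and 8.15, 7.78 and 8.88 in KO (mean 8.27 ± 0.56, SD, n = 3). The difference, KO minus WT, was -1.08. The groups overlapped, because WT replicate 1 lay below KO replicate 3. Without WT replicate 2 the difference was -1.03 and without KO replicate 1 it was -1.02.

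The chains moved in parallel. In WT the summed heavy level was 7.71, 7.93 and 8.50, against 6.79, 6.45 and 7.65 in KO, and the groups did not overlap, by a margin far smaller than the spread within either group. In WT the summed kappa level was 7.42, 8.52 and 8.92, against 7.09, 6.74 and 7.86 in KO, which overlapped. The summed lambda level, carried by only 3 segments, reached 5.64, 6.5 and 6.42 in WT, against 5.20, 4.67 and 5.28 in KO, without overlap. Heavy segments made up 34.7% to 48.6% of the sum, with the highest share in WT replicate 1, kappa 39.9% to 52.4% and lambda 8.20% to 13.0%.

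**Figure D2:**
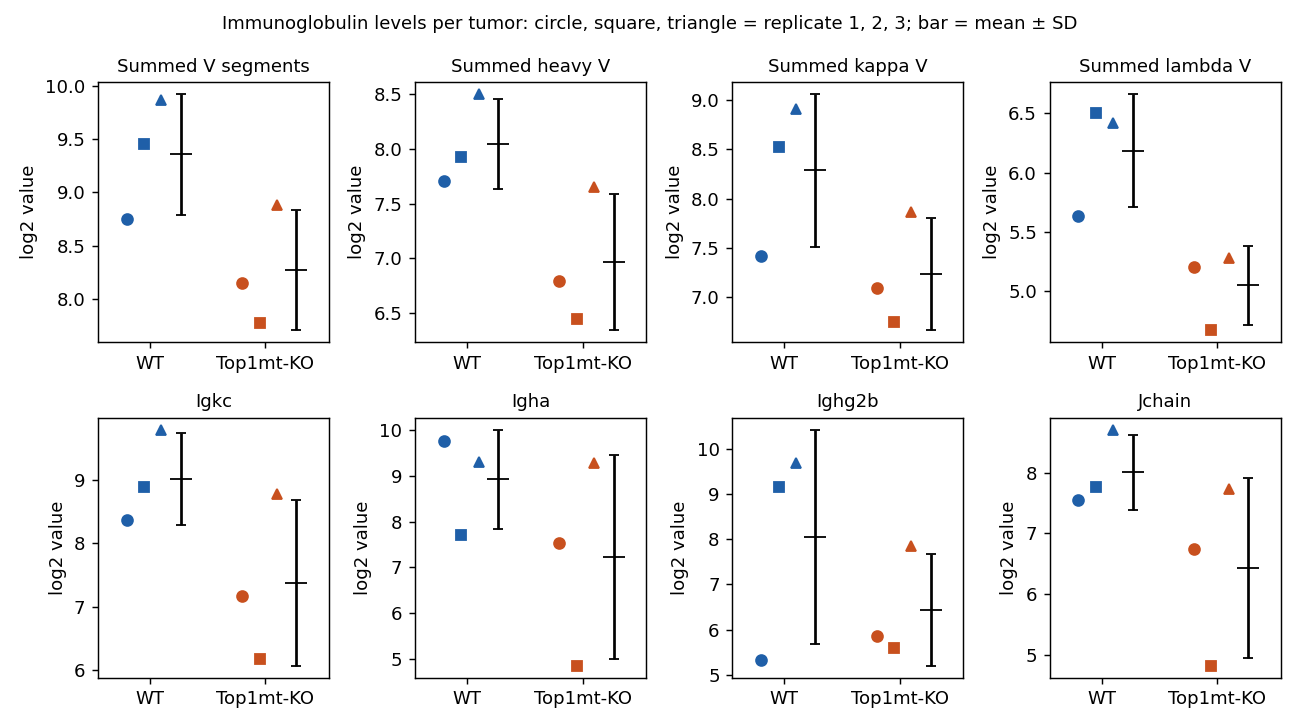
Log2 of the summed V segment level for all segments and by chain (upper row) and deposited log2 values of Igkc, Igha, Ighg2b and Jchain (lower row) in each tumor, with replicates 1 to 3 as circle, square and triangle and the mean ± SD (n = 3) beside them. KO replicate 2 (orange square) is the lowest library for the summed V segments at 7.78, for Igkc at 6.18 and for Jchain at 4.82, and the vertical axes do not start at 0.

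In the values as deposited, where undetected segments also count toward the sum, the signal in each library was spread over many segments. The highest segment held 8.03%, 7.24% and 7.48% of the summed linear level in WT and 9.42%, 7.89% and 4.96% in KO, where equal shares would give 1.20%. The top 10 held 40.2%, 38.0% and 38.2% in WT (mean 38.8% ± 1.20, SD, n = 3) and 36.4%, 36.0% and 35.5% in KO (mean 35.9% ± 0.443, SD, n = 3), where equal shares would give 12%. To reach 50% of the sum took 16, 16 and 17 segments in WT and 17 in each KO library. The inverse Simpson number, the number of equally abundant segments that would give the same evenness, reached 39.7, 40.8 and 37.2 in WT, against 40.2, 42.6 and 46.5 in KO. Dividing each value by exonic length left the 3 highest segments of every library as they were and gave top 10 shares of 35.2% to 40.1%.

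The direction of the difference between genotypes in concentration depended on how low values were treated. As deposited, every KO library had a smaller top 10 share than every WT library. The value at which an undetected segment sits counts toward the sum, and it makes up more of the sum where the total is low. When the lowest value of each segment was subtracted on the linear scale, a choice made after the data were seen, the top 10 share became 49.5%, 41.5% and 41.5% in WT, against 51.8%, 58.1% and 41.9% in KO. On that scale the highest segment held 10.5%, 8.39% and 8.40% in WT and 15.2%, 11.1% and 6.19% in KO. There 50% of the sum was reached with 11, 14 and 15 segments in WT and with 10, 8 and 14 in KO. The inverse Simpson number was then 27.9, 35.0 and 31.9 in WT and 21.1, 20.7 and 37.0 in KO. The mean difference in the top 10 share, KO minus WT, was then 6.41 percentage points, against -2.87 for values as deposited. KO replicate 2 had the largest top 10 share after subtraction, which sets a library to 0 for each segment where it is lowest, and KO replicate 2 was lowest for 34 of the 83, and KO replicate 3 lay close to WT replicates 2 and 3.

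**Figure D3:**
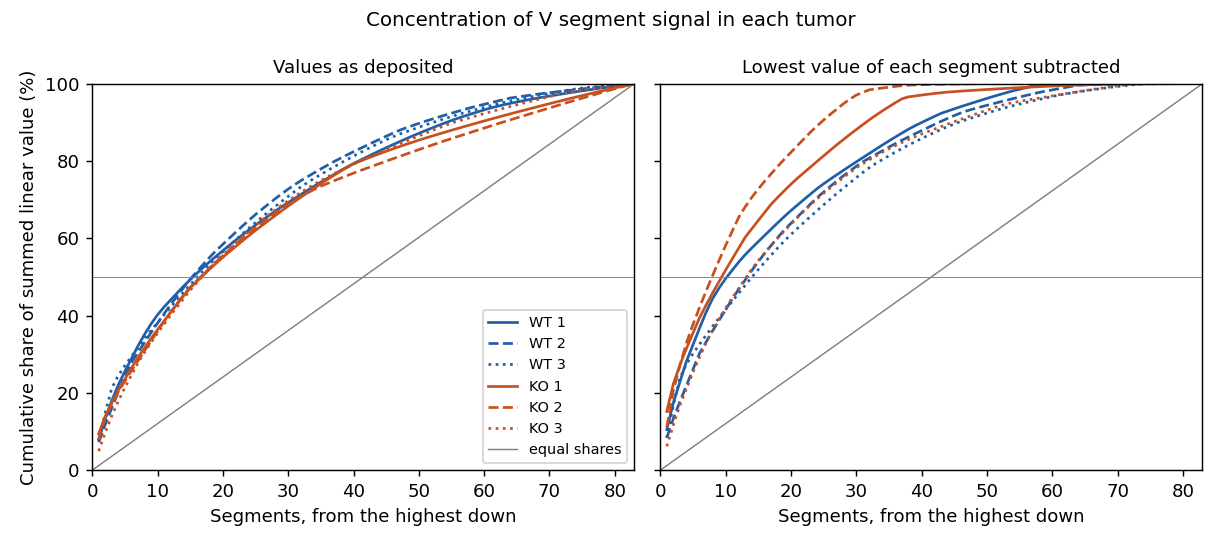
Cumulative share of the summed linear V segment level (vertical axis, percent) against the number of segments taken from the highest down (horizontal axis) for each library, with values as deposited (left) and with the lowest value of each segment subtracted (right); the grey diagonal shows equal shares. On the left the libraries nearly coincide, with 35.5% to 40.2% in the top 10, and on the right KO replicate 2 rises fastest, to 58.1%.

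Which segments led differed from tumor to tumor. Iglv1, 1 of only 3 lambda V segments, was highest in all WT libraries and in KO replicate 1, with log2 values of 5.11, 5.67 and 6.12 in WT and 4.74, 1.11 and 4.34 in KO. In KO replicate 2 it ranked 32 of 83, and Iglv3 led with 4.11 followed by Ighv10-1 with 3.64. In KO replicate 3 Ighv6-3 led with 4.55, ahead of Igkv1-110 with 4.5. After subtraction of the lowest value of each segment, Ighv14-3 led in WT replicate 3 and Ighv10-1 in KO replicate 2. The leaders of the other libraries stayed the same. No segment was among the top 10 in all 6 libraries, 2 were in 5 (Iglv1 and Igkv1-110), 3 were in 4 (Iglv3, Igkv10-96 and Igkv6-23), and 52 were in none. Pairs of libraries shared 1 to 6 of their top 10, with 3 or 4 between WT libraries, 2 to 4 between KO libraries, and the most, 6, between WT replicate 3 and KO replicate 3.

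Segments also differed in which libraries they were high in. Ighv14-3 had 4.14, 0.45 and 6.11 in WT and 2.52, 0.26 and 0.64 in KO, the widest range of the 83 at 5.85 log2 units. Its relative Ighv14-2 had 4.5, 4.11 and 3.72 in WT and 3.68, 0.49 and 2.15 in KO. The pair thus differed in which libraries were high, although the sequences shown above differ at few bases. Igkv6-32 had 1.55, 3.70 and 5.88 in WT and 3.02, 0.38 and 1.20 in KO. Igkv10-96 had 0.63, 4.92 and 4.23 in WT and 2.11, 2.97 and 3.71 in KO. Both were low in WT replicate 1, a library in which Ighv14-2 and Ighv1-26 ranked just below Iglv1. Ighv6-3 had 0.78, 3.97 and 3.82 in WT and 2.19, 0.84 and 4.55 in KO, and so was low in 1 library of each genotype. Igkv9-124 had 2.11, 4.16 and 2.36 in WT and 2.13, 1.51 and -0.04 in KO. The Ighv14 family held 9.35%, 2.66% and 8.84% of the summed level in WT and 6.54%, 1.18% and 1.27% in KO.

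The genotypes were compared segment by segment, which asks whether the tumors of KO mice carried different V segment levels. Most segments were lower in KO on average, and none passed the threshold after adjustment. By limma with Benjamini-Hochberg adjustment over 22677 genes, 0 of the 83 segments had an adjusted p under 0.05 (smallest adjusted p = 0.938), as did 0 of all genes tested (0%). All 83 passed the filter on low values. At an unadjusted p under 0.05, 16 of the 83 were lower in KO (19.3%), against 2.56% of all genes tested, and 0 were higher, against 1.79%. The WT and KO values did not overlap for 15 segments (18.1%), against 8.28% of all genes tested. These were 15 segments that were lower in KO, against 4.33% of all genes tested, and 0 that were higher, against 3.95%. The fitted difference was below 0 for 70 of the 83 (84.3%), against 52.3% of all genes tested.

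These counts describe segments measured in the same 6 tumors, so the segments are not independent of each other. The threshold of 1 on the mean also admits segments that are high in a single group. Among those counted as lower in KO, the 5 with the smallest p passed it through their WT values alone. So did Igkv3-10, with means of 1.58 in WT and 0.46 in KO. The genes behind the shares over all genes passed a lower filter, at a mean of -0.89. The shares of the segments and of all genes are therefore not on equal terms. Among all 163 V segments that passed the filter on low values, 38 had a fitted difference above 0 and the others one below, with a median of -0.53, against -0.92 for the 83 and -0.02 for all genes tested. This wider set includes segments near the low end of the scale, where even a slight difference counts as a sign. Of 18 T cell receptor V segments tested, all low, 13 were below 0 and 5 above, with a median of -0.04. The median was -1.0 over the 38 heavy segments, of which 31 were below 0, -0.85 over the 42 kappa segments, of which 36 were below 0, and -0.53 over the 3 lambda segments, all below 0. The number at an unadjusted p under 0.05 was 20 without WT replicate 2, where 1048 of all 22677 genes had such a p, and 15 without KO replicate 1, where 1354 did. It was 9 without KO replicate 2, the library with the lowest V segment total, where 1020 did. It was 24 without WT replicate 1, where 924 did, and 24 without KO replicate 3, where 859 did. With all 6 libraries 985 genes had such a p.

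**Figure D4:**
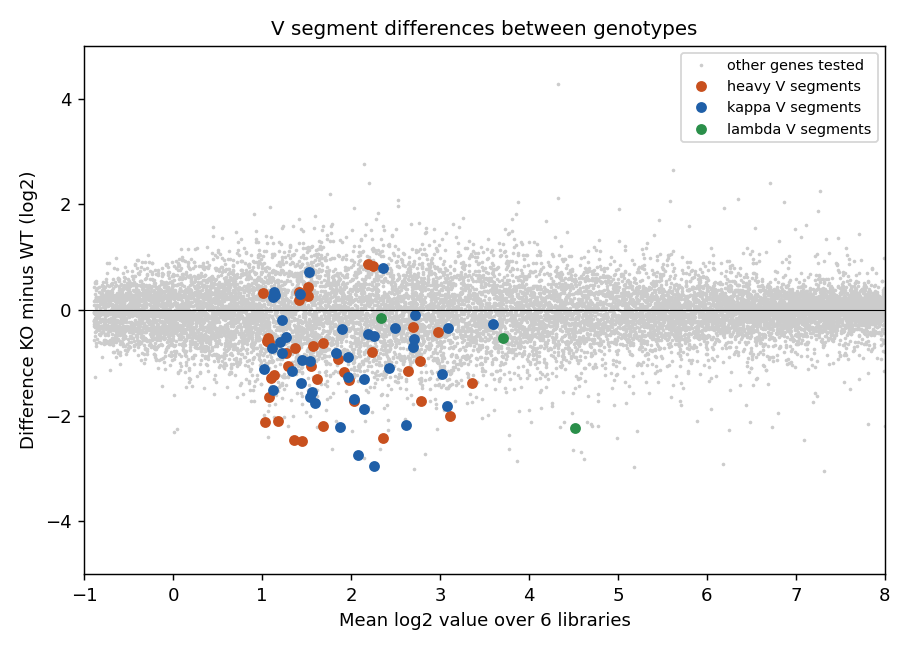
Fitted log2 difference, KO minus WT, against the mean log2 value over the 6 libraries for the V segments by chain (colored) and the other genes tested (grey); the axes are cropped at a mean of 8. Most colored points lie below 0 (70 of 83), and the lowest is Igkv6-17 at -2.96.

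The 5 segments with the smallest p included 3 heavy and 2 kappa segments. Igkv6-17 had 3.81, 3.20 and 4.21 in WT and 0.64, 0.46 and 1.25 in KO, with a log2 fold change of -2.96 (SE 0.47, limma adjusted p = 0.938). Igkv12-44 had 2.23, 3.95 and 4.17 in WT and 0.54, 0.38 and 1.20 in KO, with a log2 fold change of -2.74 (SE 0.60). In both, every KO library lay below every WT library. Ighv2-2 had 3.82, 1.82 and 2.42 in WT and 0.41, 0.25 and -0.05 in KO, with a log2 fold change of -2.48 (SE 0.54). Ighv1-76 had 2.10, 2.49 and 3.18 in WT and 0.33, 0.18 and -0.11 in KO, with -2.46 (SE 0.41), and Ighv1-50 had 1.76, 2.53 and 1.99 in WT and 0.11, 0.01 and -0.18 in KO, with -2.11 (SE 0.35). The KO values of these 3 heavy segments were all near the low end of the scale. The KO means of Igkv6-17 (0.78) and Igkv12-44 (0.71) were also below the threshold of 1. All 5 segments were thus above the threshold on the mean through their WT values alone. The adjusted p by limma was 0.938 for each of these 5 segments. By the size of the difference Ighv14-3, at -2.43 (SE 1.34), came after Igkv6-17, Igkv12-44, Ighv2-2 and Ighv1-76 and overlapped between the groups. Its difference was -3.98 without WT replicate 2 and -1.16 without WT replicate 3.

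Of the most abundant segments, Iglv1 was lower in KO by -2.24 (SE 0.91, limma unadjusted p = 0.040, adjusted p = 0.999), with every KO library below every WT library, but without KO replicate 2 the difference was -1.09. Ighv1-26 had 4.34, 3.38 and 4.42 in WT and 2.83, 1.85 and 3.32 in KO, also without overlap, with KO replicate 3 just below WT replicate 2. Iglv3 had 3.55, 5.01 and 3.38 in WT and 3.02, 4.11 and 3.20 in KO, with overlap. Igkv1-110 had 1.84, 4.86 and 4.47 in WT and 3.33, 2.58 and 4.5 in KO, and its difference of -0.26 (SE 0.87) was small beside the spread. The 13 segments with a difference above 0 reached at most 0.87. Among them Ighv10-1 had 2.75, 2.03 and 0.71 in WT and 1.99, 3.64 and 2.35 in KO, a difference of 0.83 (SE 0.68), and Ighv1-12 was above 1 in only WT replicate 3 (2.35) and KO replicate 2 (2.49).

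The constant genes, which encode the rest of the antibody chain and set its class, were not used to choose the segments. Of 13 constant genes, 9 were listed and 8 tested. All 8 had a fitted difference below 0, against 52.3% of all genes tested, with a median of -1.63. The differences of Ighm (-0.25) and Ighg3 (-0.15) were small and changed sign when single libraries were left out. None of the 8 passed limma's adjusted threshold. An unadjusted p under 0.05 was seen for 2, both lower in KO, against 2.56% of all genes tested. Over the constant, plasma cell and B cell genes together, 4 of 40 had an unadjusted p under 0.05, against 4.34% of all genes tested. Without WT replicate 3 none did, while 1 did without WT replicate 2. All 8 constant genes overlapped between the genotypes. Igkc, the kappa constant gene, had 8.37, 8.90 and 9.80 in WT and 7.17, 6.18 and 8.78 in KO, a log2 fold change of -1.65 (SE 0.63, limma unadjusted p = 0.032, adjusted p = 0.999). It was -1.05 without KO replicate 2. The order of the KO libraries for Igkc was that of the summed V level. Iglc2, a lambda constant gene, had 4.22, 4.81 and 2.96 in WT and 3.05, 3.18 and 4.40 in KO, with a difference of -0.45 (SE 0.63), which was -0.04 without WT replicate 2 and -0.97 without WT replicate 3.

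The antibody classes differed between tumors of 1 genotype. Igha, for the class secreted across mucosa and bile ducts, had 9.76, 7.70 and 9.31 in WT and 7.53, 4.85 and 9.28 in KO. Ighm, for the class of unswitched B cells, had 8.77, 7.62 and 7.23 in WT and 6.75, 7.57 and 8.56 in KO. WT replicate 1 had the highest values of both. For the IgG classes, produced in systemic responses, Ighg1 had 5.82, 8.70 and 8.37 in WT and 3.0, 4.61 and 6.58 in KO, a log2 fold change of -2.90 (SE 1.01, limma unadjusted p = 0.021, adjusted p = 0.999). Ighg2b had 5.32, 9.15 and 9.68 in WT and 5.85, 5.59 and 7.85 in KO, and Ighg2c had 5.34, 8.41 and 8.24 in WT and 3.56, 6.27 and 6.8 in KO. WT replicate 1, highest for Igha and Ighm, was thus below both other WT libraries for these 3 IgG genes. Ighg3 was high only in WT replicate 3 (5.39, against 0.40 and 1.93 in the other WT libraries and 1.65 to 3.02 in KO). Ighe, for the class of allergic responses, lay at -1.50 to -0.71 and was not tested.

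Markers of the cells that carry antibody genes are given beside them. Of 17 plasma cell genes tested, 5 had a difference above and 12 below 0 (median -0.11), and 0 passed limma's adjusted threshold of 0.05. Of these 17 genes, 2 were lower in KO at an unadjusted p under 0.05, against 2.56% of all genes tested. Jchain, which joins the units of IgA and IgM, had 7.54, 7.77 and 8.71 in WT and 6.73, 4.82 and 7.73 in KO, a difference of -1.58 (SE 0.68, limma unadjusted p = 0.0496). Tnfrsf13b, a receptor for the survival factors BAFF and APRIL, had 3.95, 3.94 and 4.49 in WT and 1.47, 3.21 and 2.96 in KO, without overlap (difference -1.58, SE 0.57). The other plasma cell genes tested had differences from -0.48 (Irf4) to 0.21 (Eaf2), with Mzb1 at -0.04 and Derl3 at 0.02. The 3 most abundant genes of that list, Xbp1, Edem1 and Sdc1, lay between 11.5 and 12.5 in every library, and hepatocytes are known to express them too. The counts and median over the list therefore do not reflect plasma cells alone. Of 15 B cell genes, 10 had a difference above and 5 below 0 (median 0.18), and 0 had an unadjusted p under 0.05. Bank1 had 6.46, 5.89 and 6.43 in WT and 6.66, 6.24 and 7.12 in KO, Cd22 ran from 4.53 to 6.49 and Cr2 from 4.33 to 5.88, each with overlap. KO replicate 3 had the highest summed B cell level of all libraries (9.45, against 8.34 to 8.87 in the others). The part of cell numbers in the V segment differences was not tested.

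Other lists gave the surroundings. Of 11 T cell genes tested, 7 had a difference above and 4 below 0, with Lck between 4.01 and 4.60, Cd4 between 3.10 and 4.51 and Cd8a between 3.17 and 4.47. Of the 5 myeloid genes 2 were above and 3 below 0, with Lyz2 and Csf1r between 10.1 and 11.8 and Clec4f between 9.63 and 10.9, and of the 7 hepatocyte genes 4 were above and 3 below, with Apoa1 at 17.0 to 18.4 and Ttr at 15.6 to 16.8. Of 12 survival, homing and transport genes, 11 were tested, 2 above and 9 below 0. Pigr, the receptor that carries IgA into bile, had 12.5, 11.7 and 13.0 in WT and 11.8, 13.1 and 13.5 in KO, Cxcl12, a chemokine that retains plasma cells, had 10.4 to 11.8, and Tnfsf13 (APRIL) had 4.43 to 7.61. None of these genes had an unadjusted p under 0.05.

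The J segments, to which V segments are joined, were measured as genes of their own. The 4 heavy J segments listed had values of 0.32 to 3.18 and the 5 kappa J segments -0.21 to 3.28. Ighj1 had 1.0, 2.27 and 2.71 in WT and 0.48, 0.32 and 0.68 in KO, without overlap (difference -1.50, SE 0.49, limma unadjusted p = 0.015, adjusted p = 0.999). Ighj4 had 3.09, 1.66 and 1.54 in WT and 2.82, 1.86 and 3.18 in KO, and Ighj3 ran from 0.37 to 2.69. Among the kappa J segments Igkj4, the highest by mean, ran from 0.58 to 3.01, Igkj2 from 0.25 to 3.28 and Igkj5 from 0.29 to 2.03. The 9 heavy D segments, of which Ighd1-1, Ighd4-1 and Ighd2-4 were the highest, stayed between -2.23 and -0.65. For comparison with another receptor built from V segments, 86 T cell receptor V segments were listed, 18 were tested, 0 had a mean above 1, and the highest were Trbv13-1, Trgv2 and Trbv12-2, none above 1.34 in any library.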

How the data were processed

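RNA from 3 WT and 3 Top1mt-KO liver tumors was analysed. Per gene symbol, the authors' table holds log2 expression, and these deposited values were normalized between libraries by a transform not named in the sources used here, so read counts and depth are unknown and no depth-based interval is given. The values behave like a regularized log, which draws low values toward a level particular to each gene. By the methods of the study, the authors used Trimmomatic, BWA and Mm 8, uniquely mapped reads, featureCounts and DESeq2. The submitters' processing notes name bcl2fastq 2.17, Trimmomatic 0.36, STAR 2.5.1, Subread, DESeq2 and GRCm38, and which aligner and build made the values is unclear. Reads across V(D)J joints, mutated V segments and stretches shared by segments may have been lost in unique mapping. Columns left out of use were 3 without a name, and columns of other samples numbered 0.

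WT and KO libraries were compared by limma 3.58.1 in R 4.3.3 (trend, Benjamini-Hochberg adjustment, threshold 0.05) on 22677 genes with a mean above the lowest 25%, because a count test needs counts. The procedure was tested on simulated data. Linear values are 2 to the power of the deposited value, and their sums and shares per library carry no test. Segments were compared with blastn 2.17.0 and Biopython 1.88, with transcripts and positions from GENCODE M21 (GRCm38).

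The segments and the lists (constant, plasma cell, B cell, recombination and hypermutation, survival, homing and transport, T cell, myeloid, hepatocyte, J, D and T cell receptor V segments) were chosen with earlier results of these data known. Segments named are the 3 highest in each library, the 5 with the highest mean, smallest p, largest difference or widest range, the highest of each chain and the 2 on either side of the threshold. Igkv1-117, Igkv6-25 and Iglv2 were added as relatives with printed sequence, and Igkv6-23 for its recurrence in the top 10, after values were seen. From the other lists every constant gene, genes with an unadjusted p under 0.05 and the 3 highest were named. Irf4, Eaf2, Mzb1 and Derl3 were added after values were seen, to show the other plasma cell genes. Some genes of these lists are not reported here one by one. Alternatives were limma without trend, quantile normalization, other filters, a replicate block, each library left out, other thresholds on the mean, every V segment, values per length, functional segments alone and, added after seeing the data, subtraction of the lowest value of each segment.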

Additional observations from a re-analysis of the deposited data

How the results depend on the processing

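No V segment passed an adjusted p under 0.05 in any of the limma alternatives run. The number at an unadjusted p under 0.05 was 16 (985 of all 22677 genes), 15 without trend (1047), 15 with quantile normalization (965) and 11 with no filter on low values (1003 of 30236). With the filter at the median, only 7 of the segments were tested, of which 4 had an unadjusted p under 0.05 and 7 a difference below 0, and over all genes 590 had an unadjusted p under 0.05 (985 otherwise). With no filter 4 genes passed the adjusted threshold, none a V segment. Constant, plasma cell and B cell genes at an unadjusted p under 0.05 numbered 4 of 40, and 2 without trend.

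Leaving out each library in turn gave 9 to 24 V segments at an unadjusted p under 0.05 (9 without KO replicate 2), 63 to 75 below 0, 0 to 5 constant, plasma cell and B cell genes (0 without WT replicate 3, 1 without WT replicate 2), 0 to 1 genes overall at an adjusted p under 0.05 (1 without KO replicate 1), 859 to 1354 at an unadjusted p, a Top1mt difference of -1.76 to -0.75 a summed V level difference of -1.39 to -0.83 and a top 10 share difference of -3.25 to -2.17 percentage points. Among the 18 V segments, the constant genes and Top1mt refitted one by one, differences that changed sign were Ighv1-12 (-0.33 to 1.08), Ighm (-0.71 to 0.20), Igkv1-110 (-1.20 to 0.31), Igkv10-96 (-1.65 to 0.50), Ighv6-3 (-1.36 to 0.51) and Ighg3 (-1.24 to 1.26). The cause was not tested.

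Deviations of WT and KO libraries that share a number correlated at -0.12, -0.076 and 0.052, which gives no pairing of the tumors. With the replicate number as a block, 22 V segments and 912 of all genes had an unadjusted p under 0.05, and 0 passed after adjustment.

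With segments of mean above 2, the top 10 held 58.6% on average (37.4% otherwise) and 8.17 segments reached 50% (16.7 otherwise). With every V segment listed, the values were 29.7% and 25.3, and the top 10 difference, KO minus WT, was -5.22 percentage points. With the lowest value of each segment subtracted they were 47.4% and 12, the top 10 difference reversed to 6.41 and the summed V level difference was -1.57. Fewer or more segments in the sum set the first of these shifts by construction. Depth is unknown, so how many reads lie behind a low segment cannot be given.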

Other observations

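Genes that assemble antibody genes were measured alongside the segments. Dntt, which adds bases at V(D)J joints in developing lymphocytes, had log2 values of 4.98, 6.85 and 7.78 in WT and 6.17, 6.85 and 7.32 in KO, while Rag1 and Rag2, which cut the segments, ran from 0.74 to 2.11 and from 0.30 to 1.14. Vpreb1 and Vpreb3, parts of the precursor B cell receptor or related to it, ran from 0.67 to 2.79 and from 0.70 to 2.09. Of the 8 genes of this list, 2 had a difference above and 6 below 0, and 0 had an unadjusted p under 0.05 by limma. Chosen after its values were seen, Cd3g, a subunit of the T cell receptor complex, was higher in every KO library (3.55, 3.83 and 3.50) than in any WT library (3.16, 2.57 and 2.44), and Cd3e, another subunit, was lower in every KO library (1.14, 2.01 and 2.15) than in any WT library (3.27, 2.94 and 2.18). Neither had an unadjusted p under 0.05 by limma, and the groups did not overlap for 8.28% of all genes tested.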
